A study of Mus musculus with 4 samples.

Results

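Interleukin-6 (IL-6) and its relatives signal through a shared chain, Il6st, which pairs with a receptor chain that is particular to each cytokine. In the liver, binding activates Janus kinases, these phosphorylate the transcription factor Stat3, and Stat3 switches on acute phase genes together with Socs3, which shuts the receptor down again. Cebpb and Cebpd are transcription factors of the same response. The genes described here are the ligand Il6, the receptor chains Il6ra, Il6st, Osmr and Lifr, the transducer Stat3, its inhibitor Socs3, and Cebpb and Cebpd. They were taken by symbol, 9 genes of the 24346 listed in each library, and all 9 were found. Identifiers and positions are those of the GENCODE annotation of mm10.

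The libraries were made from whole liver of C57BL/6 mice, wild-type males aged 8 weeks when the diet began. The control group (n = 2) was fed the NASH diet, rich in fat and cholesterol and containing bile salt, for 3 weeks, and the 7KC group (n = 2) was fed the same diet with 7-ketocholesterol (7KC), an oxidized cholesterol. This diet induces steatohepatitis and was shared by both groups, and liver from mice on normal chow was not analysed here. Each library was 1 sample. The p-values rest on the spread between these 2 samples per group and on the variance shared between genes, and on no other samples.

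Expression was given as FPKM, the fragments of a gene scaled to the length of its exons and to the depth of the library. The estimated depth was between 13700000 and 17100000 mapped reads per library. Genes averaging 0.5 FPKM or more, 12299 in number, entered a limma test on log2(FPKM + 0.5), and over them the log2 change had a median of -0.03. When the libraries were rescaled to the same sum of FPKM this median became 0.16, so changes smaller than about this shift have no fixed sign. The hepatocyte markers were abundant in every library. Their summed level was 70270 and 56160 FPKM in control replicates 1 and 2 and 51200 and 36990 FPKM in 7KC replicates 1 and 2. Of these sums Alb alone gave 41550 and 25200 against 26970 and 18990 FPKM, and its groups overlapped. In 6 of 8 markers both 7KC libraries lay below both control libraries, against 27.4% of all tested genes. The total over all genes was 685028 and 671235 against 619828 and 557138 FPKM, and the marker counts were not repeated with the libraries rescaled to the same sum. The monocyte and recruited macrophage markers summed to 606 and 364 FPKM in the control libraries and to 1130 and 1781 FPKM on the 7KC diet. In 8 of 10 both 7KC libraries exceeded both control libraries, against 25.1% of all tested genes. In whole liver, a change in the number of cells of a type and a change in the RNA per cell cannot be told apart.

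The first question was whether these genes of IL-6 signaling differed when 7KC was added to the diet. Of the 9 genes, 8 passed the filter on low values, and none was called at an adjusted p under 0.05, 0 higher and 0 lower. Among all tested genes 0.480% were called higher and 0.0244% lower. At an unadjusted p under 0.05 limma also gave 0 of the 8, whereas 17.8% of all tested genes were below that level. Both 7KC libraries exceeded both control libraries in 1 gene, Socs3, and were below them in 1 gene, Il6ra, and in the other 6 the groups overlapped. Over all tested genes the share without overlap was 25.1% higher and 27.4% lower. The median log2 change of the 8 genes was -0.08, and their changes ranged from -0.55 to 0.28. Because 2 libraries against 2 allow only 3 divisions, an exact permutation test of a single gene cannot go below a two-sided p of 0.333, and the calls rest on the variance that limma shares between genes.

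**Figure D1:**
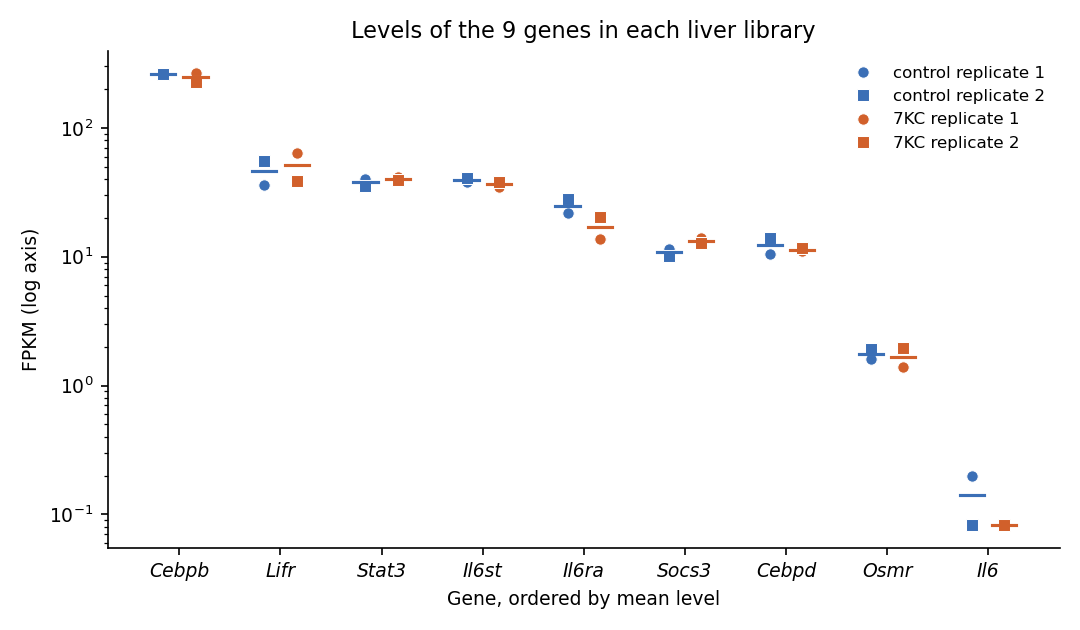
FPKM of the 9 genes (log axis) in the 2 control libraries (blue) and the 2 libraries of the 7KC group (orange), with circles for replicate 1, squares for replicate 2 and a bar at each group mean. The genes span from Cebpb, at 228 to 265 FPKM, to Il6, at no more than 0.199 FPKM, and only Il6ra and Socs3 have groups that do not overlap.

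The ligand itself was barely detected. Il6 (ENSMUSG00000025746, chromosome 5, 30013114 to 30019981, plus strand, mm10) was at 0.199 and 0.0823 FPKM on the control diet and at 0.0830 and 0.0824 FPKM on the 7KC diet. Multiplied by the depth of each library, these values stood as 3 to 1 to 1 to 1, and with its principal transcript of 1141 bases they corresponded to about 3.2, 1.1, 1.1 and 1.1 reads. The value of control replicate 1 was the highest, and the other 3 libraries were alike. Il6 stayed below the filter and was not tested, and a fall from this level, or a rise of few reads, could not have been detected at this depth.

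The receptor chains were present at very different levels. Il6ra (ENSMUSG00000027947, chromosome 3, 89864059 to 89913196, minus strand), which binds IL-6 and is made in the liver mainly by hepatocytes, was at 22.0 and 27.9 FPKM on the control diet and at 13.8 and 20.4 FPKM on the 7KC diet. Both 7KC libraries were below both control libraries, but 7KC replicate 2 was close to control replicate 1, and with the libraries rescaled to the same sum the groups overlapped. The means were 24.9 ± 4.16 and 17.1 ± 4.63 FPKM (SD, n = 2 each), and the log2 change of -0.55 (SE 0.22, 95% interval -1.11 to 0.01) did not pass the threshold (adjusted p 0.288 by limma). Its size exceeded that of 86.7% of all tested genes. It was -0.28 without 7KC replicate 1, -0.82 without 7KC replicate 2, and -0.38 without control replicate 2, and over 13 alternatives the adjusted p lay between 0.239 and 0.607. The hepatocyte markers given above were also lower in the 7KC libraries, and their part in the value of Il6ra was not tested. Within each library the log2 ratio of Il6ra to Il6st was -0.77 and -0.54 in the control group and -1.30 and -0.89 in the 7KC group, so it was lower without overlap, a comparison chosen after the values were seen. In the GENCODE annotation an antisense gene, Gm42809, overlaps Il6ra, and the counting was not stated to use strand.

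Il6st (ENSMUSG00000021756, chromosome 13, 112464070 to 112510086, plus strand), the shared signaling chain, was among the steadiest of these genes. It was at 37.8 and 40.9 FPKM on the control diet and at 34.9 and 38.2 FPKM on the 7KC diet, and the groups overlapped. The log2 change was -0.11 (SE 0.11, adjusted p 0.664 by limma), with a 95% interval of the fold from 0.760 to 1.14. Osmr (ENSMUSG00000022146, chromosome 15, 6813577 to 6874969, minus strand), the chain that joins Il6st to bind oncostatin M, was low in this tissue. It was at 1.60 and 1.91 FPKM on the control diet and at 1.40 and 1.96 FPKM on the 7KC diet, or about 101 to 145 reads. The highest and the lowest of these values were both in the 7KC group, and the log2 change was -0.06 (SE 0.20, 95% interval -0.56 to 0.44, adjusted p 0.900 by limma).

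Lifr (ENSMUSG00000054263, chromosome 15, 7090614 to 7197489, plus strand), the chain that joins Il6st to bind leukemia inhibitory factor, varied more within each group than between the groups. It was at 36.1 and 55.9 FPKM in control replicates 1 and 2 and at 64.3 and 38.5 FPKM in 7KC replicates 1 and 2. The higher library exceeded the lower by 1.55 times in the control group and by 1.67 times in the 7KC group, while the ratio of the group means was 1.12. The log2 change of 0.15 (SE 0.31, 95% interval -0.64 to 0.94, adjusted p 0.840 by limma) turned to -0.16 without control replicate 1 and to -0.22 without 7KC replicate 1. It came to 0.46 without control replicate 2 and to 0.51 without 7KC replicate 2. Osmr and Lifr compete for the same partner, so their ratio, from FPKM + 0.5, was examined within each library. The log2 ratio of Osmr to Lifr was -4.12 and -4.55 in the control group and -5.10 and -3.99 in the 7KC group. The 7KC libraries held both the lowest and the highest ratio, and the difference of the group means was -0.21.

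Stat3 (ENSMUSG00000004040, chromosome 11, 100885098 to 100939540, minus strand), the transcription factor activated by these receptors, was nearly level in the FPKM as deposited. It was at 40.5 and 35.2 FPKM on the control diet and at 41.3 and 39.2 FPKM on the 7KC diet, so the groups overlapped. The log2 change was 0.09 (SE 0.12, adjusted p 0.731 by limma), and the 95% interval of the fold ran from 0.862 to 1.31. With the libraries rescaled to the same sum the log2 change was 0.29 (adjusted p 0.222 by limma), and the groups no longer overlapped. The gene overlaps Stat5a on the opposite strand, which was at 2.99 to 4.37 FPKM. These are transcript levels, and the phosphorylation of Stat3, by which it is switched on, was not measured here.

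Socs3 (ENSMUSG00000053113, chromosome 11, 117966079 to 117970047, minus strand), the feedback inhibitor that Stat3 induces, was at 11.6 and 10.1 FPKM on the control diet and at 13.9 and 12.7 FPKM on the 7KC diet. Both 7KC libraries were higher than both control libraries, by a ratio of the means of 1.23. The log2 change of 0.28 (SE 0.12, 95% interval -0.03 to 0.60) did not pass the threshold (adjusted p 0.317 by limma). It kept its sign under the 13 alternatives computed for single genes, between 0.19 without control replicate 2 and 0.48 with the libraries rescaled to the same sum, and the lowest adjusted p among them was 0.107.

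Where a STAT factor can bind is often marked by the palindrome TTCNNNGAA, and C/EBP factors bind sites such as TTGCNNAA. Both motifs were searched on both strands in the 250 bases before the transcription start of each RefSeq promoter entry (build GRCm38.p6, the same assembly as mm10). Of the 9 genes 8 had an entry, and overlap between the motifs was not considered. TTCNNNGAA occurred in 1 of these 8 genes, Socs3, against 7.02% of the 32851 windows of all genes. TTGCNNAA occurred in 1, Il6, against 9.56% of all windows. Stretches of other pathway genes, chosen after their values were seen, are shown for comparison: Irf1 and Saa3, which are described below with the responsive genes. Of the 25 pathway genes named below 19 had an entry, and TTCNNNGAA occurred in 1 of them, Irf1, and TTGCNNAA in 4, which were Lcn2, Orm2, Ptpn1 and Saa3. The matched letters are in capitals with 30 bases on each side, read 5′ to 3′ on the strand of the gene, and in Il6 and Saa3 they match the reverse complement of the motif. The matches begin 154 bases before the start site for Socs3, 90 for Irf1, 128 for Il6 and 99 for Saa3, and a match of letters is a description of the sequence, not evidence of binding. The Socs3 window follows an upstream RefSeq start, so it is not the 250 bases before the other starts of this gene. It lies inside the span of the gene given above, which takes in longer transcripts.
Socs3, chr11:117969482-117969550, minus strand: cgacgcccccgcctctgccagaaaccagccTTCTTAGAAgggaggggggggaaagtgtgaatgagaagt
Irf1, chr11:53769894-53769962, plus strand: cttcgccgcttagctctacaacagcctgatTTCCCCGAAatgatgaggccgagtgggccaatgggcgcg
Il6, chr5:30012956-30013023, plus strand: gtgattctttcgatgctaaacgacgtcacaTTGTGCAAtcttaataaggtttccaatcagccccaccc
Saa3, chr7:46715738-46715805, minus strand: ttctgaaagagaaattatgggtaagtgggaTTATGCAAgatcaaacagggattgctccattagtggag

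Cebpb (ENSMUSG00000056501, chromosome 2, 167688915 to 167690418, plus strand), once named nuclear factor for IL-6, was the most abundant of the 9 genes and stood above 97.0% of all tested genes. It was at 263 and 262 FPKM on the control diet and at 265 and 228 FPKM on the 7KC diet. 7KC replicate 2 was the lowest and 7KC replicate 1 the highest, and the log2 change was -0.09 (SE 0.13, 95% interval -0.43 to 0.25, adjusted p 0.749 by limma). Cebpd (ENSMUSG00000071637, chromosome 16, 15887286 to 15891031, plus strand), a related factor that acute inflammation induces, was at 10.5 and 14.0 FPKM on the control diet and at 11.01 and 11.7 FPKM on the 7KC diet. Both 7KC values lay between the control values, and the log2 change was -0.09 (SE 0.16, 95% interval -0.51 to 0.32, adjusted p 0.799 by limma). Each of these genes overlaps a gene on the opposite strand, Tmem189 at 16.3 to 19.6 FPKM for Cebpb and Spidr at 1.82 to 2.15 FPKM for Cebpd. With the libraries rescaled to the same sum the log2 changes of Cebpb and Cebpd were 0.11 and 0.10, those of Il6st and Osmr were 0.10 and 0.10, and thus all 4 changed sign.

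By mean level over the 4 libraries the order was Cebpb (255 FPKM), Lifr (48.7), Stat3 (39.0), Il6st (38.0), Il6ra (21.0), Socs3 (12.1), Cebpd (11.8), Osmr (1.72) and Il6 (0.112). Neighbours whose ranges overlapped were Lifr and Stat3, Stat3 and Il6st, Il6ra and Socs3, and Socs3 and Cebpd. The ranges were separate between Cebpb and Lifr, between Il6st and Il6ra, between Cebpd and Osmr, and between Osmr and Il6. The shared chain Il6st was above Il6ra in 4 of 4 libraries. The 3 genes whose pattern over the 4 libraries was most like that of Stat3, by the distance between mean-centred log2(FPKM + 0.5) values, were Cant1 (0.0246), Stx12 (0.0296) and Tma7 (0.0300). For Socs3 they were Rad9a (0.0321), Mcm9 (0.0328) and Idnk (0.0328).

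Other genes of the pathway were then described from 7 lists with 89 genes in all, of which 80 were tested. Of these 80, limma called 0 higher and 0 lower, and at an unadjusted p under 0.05 there were 25 higher and 1 lower, against 12.0% higher and 5.81% lower of all tested genes. Both 7KC libraries exceeded both control libraries in 36 of the 80 and were below them in 14, against 25.1% and 27.4% of all tested genes. The median log2 change of the 80 was 0.14.

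Among the 10 other cytokines of the family 5 were tested and 0 passed. Ebi3 and Il27, the 2 subunits of interleukin-27, which signals through Il6st and Il27ra, were both higher without overlap. Ebi3 was at 2.60 and 2.25 FPKM on the control diet and at 6.43 and 5.56 FPKM on the 7KC diet. Its log2 change of 1.15 (SE 0.15, 95% interval 0.78 to 1.52) just missed the threshold (adjusted p 0.0523 by limma, and 0.0241 to 0.294 over 13 alternatives). Il27 was at 0.472 and 0.878 FPKM on the control diet and at 3.54 and 1.61 FPKM on the 7KC diet, a log2 change of 1.34 (SE 0.36, adjusted p 0.162 by limma) that was 0.87 without 7KC replicate 1. The receptor chain Il27ra was at 1.49 and 0.793 FPKM against 1.63 and 2.76 FPKM, so the log2 change came to 0.72 (SE 0.31, adjusted p 0.312 by limma), and to 0.40 without control replicate 2 and 0.41 when 7KC replicate 2 was left out. Ctf1, cardiotrophin, was at 4.05 and 3.76 FPKM against 3.51 and 3.57 FPKM, with a log2 change of -0.12 (adjusted p 0.645 by limma) that became 0.06 when the libraries were rescaled to the same sum. Osm, the ligand of Osmr, and Lif, a ligand of Lifr, were below the filter. Osm was at 0.0342 and 0.0849 FPKM on the control diet and at 0.0855 and 0.680 FPKM on the 7KC diet, and Lif was at 0.0914 and 0.0189 against 0.133 and 0.265 FPKM. Both were higher without overlap, at levels of few reads, and neither was tested. Of the 5 other receptor chains 3 were tested and 0 passed.

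Of 9 Janus kinases and other STAT factors, all tested, 0 passed the threshold, 6 were higher without overlap, 0 were lower, and the median log2 change was 0.35, where 25.1% of all tested genes were higher and 27.4% lower without overlap. Jak2, a kinase activated by Il6st, was at 6.64 and 5.42 FPKM on the control diet and at 9.14 and 9.12 FPKM on the 7KC diet. Its log2 change was 0.57 (SE 0.14, 95% interval 0.22 to 0.92, adjusted p 0.132 by limma). Jak3, a leukocyte kinase, was at 4.42 and 4.41 FPKM against 6.72 and 7.51 FPKM, and its log2 change was 0.63 (SE 0.12, adjusted p 0.0934 by limma). Stat4, a STAT factor of lymphocytes, had a log2 change of 0.65 (adjusted p 0.240 by limma), and Stat2, a factor of interferon signaling, was at 12.2 and 11.05 FPKM against 16.1 and 15.0 FPKM, with 0.41 (adjusted p 0.178 by limma). Jak1, the main kinase of Il6st, overlapped between the groups, at 28.3 and 30.1 FPKM against 26.5 and 31.2 FPKM.

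Among 16 other feedback regulators 15 were tested and 0 passed, with a median log2 change of -0.02. Without overlap 5 were higher and 3 lower, where all tested genes gave 25.1% higher and 27.4% lower. Socs1 (chromosome 16, 10782240 to 10785536, minus strand), the relative of Socs3 that restrains interferon receptors, was at 2.54 and 2.07 FPKM on the control diet and at 18.8 and 7.17 FPKM on the 7KC diet. The ratio of the means was 5.64, but the 7KC libraries differed from each other by 2.63 times, and the log2 change of 2.12 (SE 0.43, 95% interval 1.03 to 3.22) did not pass the threshold (adjusted p 0.0985 by limma, and 0.0436 to 0.243 over 13 alternatives). It was 1.46 without 7KC replicate 1 and 2.79 without 7KC replicate 2. The phosphatases Ptpn6, a leukocyte enzyme, and Ptpn1 had log2 changes of 1.0 and 0.81 (adjusted p 0.0588 and 0.0765 by limma). They passed the threshold with the libraries rescaled to the same sum, at adjusted p-values of 0.0271 and 0.0414 by limma. That scaling shifted the tested genes upward in general. With a term for the replicate number in the model the adjusted p-values were 0.194 and 0.219 by limma. The log2 changes were 1.15 and 0.95 without control replicate 1, and 0.85 and 0.66 without control replicate 2. Pias2 had a log2 change of -0.37 (adjusted p 0.297 by limma), and -0.23 without control replicate 2.

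Socs1 and Socs3 were then compared within each library, a comparison chosen after the values were seen. Their log2 ratio was -1.99 and -2.05 on the control diet and 0.43 and -0.79 on the 7KC diet. Socs1 was below Socs3 in 3 libraries and above it in 7KC replicate 1. The difference of the group means was 1.84 on the log2 scale, which does not depend on the scaling of the libraries apart from the pseudocount. No exact test of this difference can reach the threshold with 2 libraries per group. The monocyte and macrophage markers were higher in the 7KC libraries, as given above, and the T and NK cell markers, with summed levels of 18.8 and 13.2 FPKM against 45.2 and 41.1 FPKM, were higher without overlap in 8 of the 8 tested, against 25.1% of all tested genes. Their part in the values of Socs1, Ebi3, Il27, Jak3 and Ptpn6 was not tested.

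**Figure D2:**
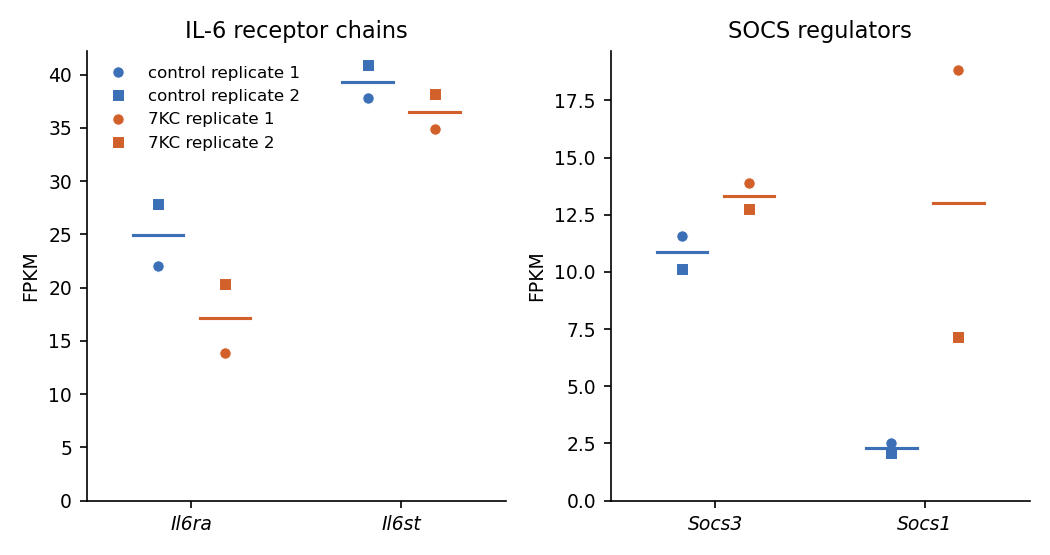
FPKM of Il6ra and Il6st (left) and of Socs3 and Socs1 (right) in each library, with colours, symbols and mean bars for control and 7KC replicates 1 and 2 and axes that start at 0. Il6ra was at 22.0 FPKM or more on the control diet and at 20.4 FPKM or less on the 7KC diet, and the 7KC libraries differ widely in Socs1, at 18.8 and 7.17 FPKM.

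Of the 4 other C/EBP factors, all tested, 0 passed. Cebpa, which maintains the hepatocyte program, was at 183 and 244 FPKM on the control diet and at 179 and 130 FPKM on the 7KC diet, a log2 change of -0.47 (SE 0.22, adjusted p 0.342 by limma), and 7KC replicate 1 was just below control replicate 1. It was -0.26 without control replicate 2 and -0.24 when 7KC replicate 2 was left out. The log2 ratio of Cebpb to Cebpa was 0.52 and 0.11 on the control diet and 0.57 and 0.81 on the 7KC diet. This comparison was not planned, and the ratios of control replicate 1 and 7KC replicate 1 were close. Cebpg had a log2 change of -0.31 (adjusted p 0.276 by limma) and Ddit3, a stress-induced factor, one of 0.43 (0.414), which was 0.07 without control replicate 2 and 0.79 when control replicate 1 was left out.

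Soluble IL-6 receptor is released from cells by membrane proteases, and the genes of this step were higher without overlap in 4 of 4, against 25.1% of all tested genes. Adam17, the main inducible sheddase, was at 8.03 and 6.80 FPKM on the control diet and at 11.5 and 13.6 FPKM on the 7KC diet, a log2 change of 0.72 (SE 0.15, 95% interval 0.35 to 1.09, adjusted p 0.0966 by limma). Rhbdf2, which carries Adam17 to the surface of immune cells, had a log2 change of 0.72 (adjusted p 0.0934 by limma). Its relative Rhbdf1 had 0.44 (0.262) and the constitutive protease Adam10 0.26 (0.438), and 0 of the 4 passed the threshold. Leaving out 7KC replicate 2 brought Adam10 to 0.07 and Rhbdf1 to 0.29, and leaving out 7KC replicate 1 brought Adam10 to 0.46. The monocyte and T cell markers were higher in the same libraries, and their part in these values was not tested.

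**Figure D3:**
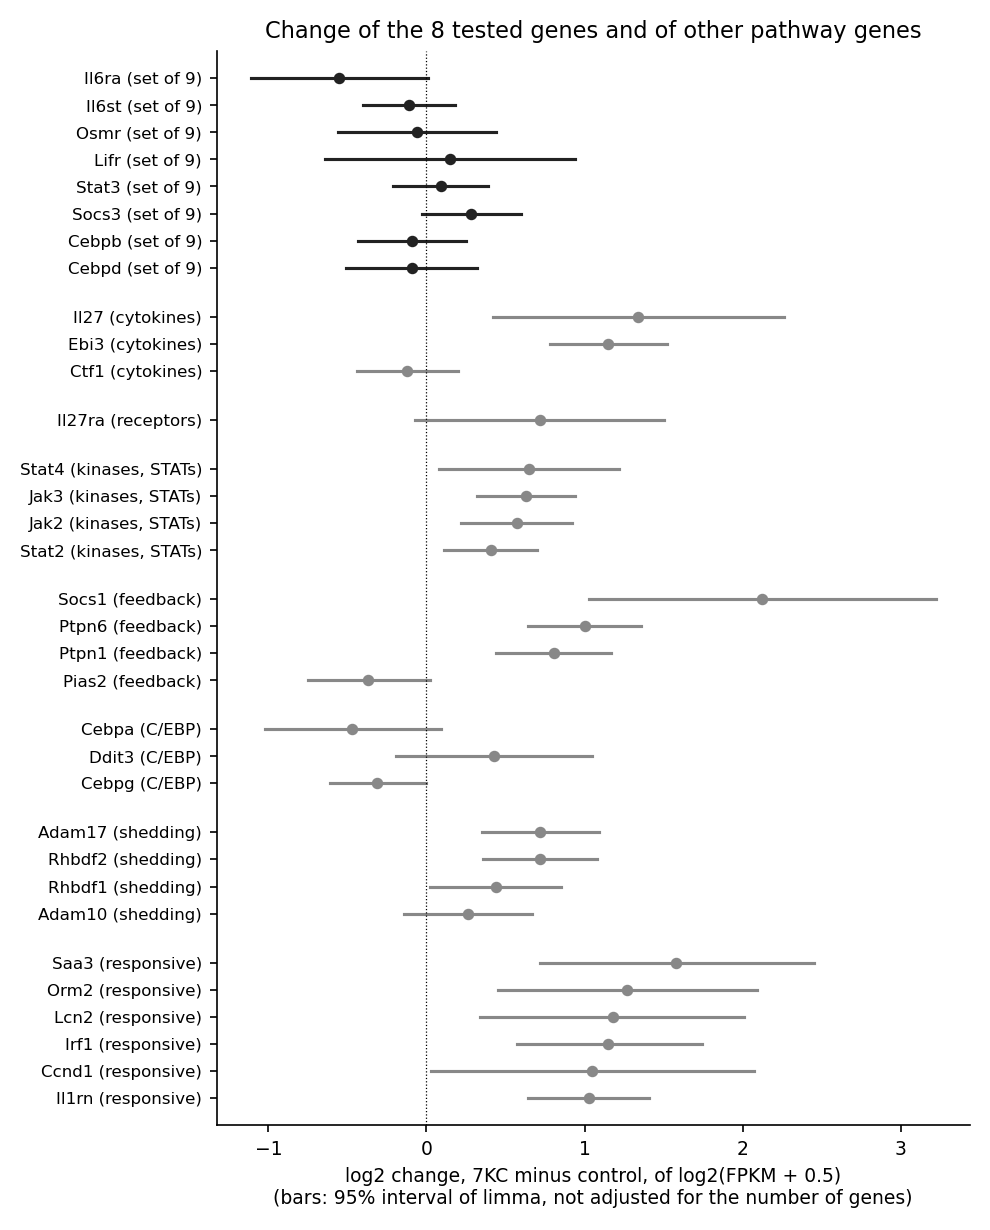
Log2 change (7KC minus control, points) with 95% limma intervals (bars) for the 8 tested genes of the set of 9 (black) and for pathway genes named by a fixed rule (grey). The black points lie between -0.55 and 0.28 and all their intervals include 0, and among the grey points Socs1, at 2.12, has the largest change.

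The last question was how liver genes known to respond to IL-6 and Stat3 behaved. Of 41 such genes 40 were tested, and 0 were called higher and 0 lower. At an unadjusted p under 0.05 limma gave 12 of the 40 higher and 0 lower, against 12.0% and 5.81% of all tested genes. Both 7KC libraries exceeded both control libraries in 17 of the 40 and were below them in 8. Of all tested genes 25.1% were higher and 27.4% lower without overlap. The median log2 change of the 40 was 0.14. The acute phase gene Saa3, which macrophages also express, was at 346 and 170 FPKM on the control diet and at 759 and 698 FPKM on the 7KC diet. Its log2 change was 1.58 (SE 0.34, adjusted p 0.108 by limma), which leaving out control replicate 2 brought to 1.07. Leaving out control replicate 1 brought it to 2.10, with an adjusted p of 0.0191 in which the control group is 1 library and the spread comes from the 7KC group alone. Lcn2, an iron-siderophore binding protein, was at 405 and 267 FPKM against 566 and 979 FPKM, so the log2 change came to 1.18 (SE 0.33, adjusted p 0.175 by limma) and to 0.78 when 7KC replicate 2 was left out. Orm2, an acute phase glycoprotein whose reads may be shared with its close relatives Orm1 and Orm3, was at 206 and 243 FPKM against 388 and 752 FPKM, a log2 change of 1.27 (adjusted p 0.145 by limma) that was 0.79 when 7KC replicate 2 was left out. The monocyte, macrophage, T and NK cell markers given above were higher in the same libraries, and their part in the values of the responsive genes was not tested. Other marker lists were mixed. Of 8 resident Kupffer cell markers 3 were higher and 2 lower without overlap, and of 5 tested neutrophil markers 2 and 1. Of 8 endothelial markers 0 were higher and 0 lower, where all tested genes gave 25.1% and 27.4%.

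Irf1, a transcription factor that interferons and IL-6 can induce, was at 32.6 and 23.1 FPKM on the control diet and at 72.4 and 52.4 FPKM on the 7KC diet, a log2 change of 1.15 (SE 0.23, adjusted p 0.0965 by limma). Il1rn, the interleukin-1 receptor antagonist, was at 7.55 and 5.80 FPKM against 13.9 and 14.1 FPKM, so the log2 change came to 1.03 (SE 0.15, adjusted p 0.0605 by limma). Ccnd1, a cyclin, was at 11.8 and 4.69 FPKM against 15.1 and 17.1 FPKM, so the log2 change came to 1.05 (SE 0.40, adjusted p 0.269 by limma). It was 0.43 without control replicate 2, and 1.67 with an adjusted p of 0.0167 without control replicate 1. Without that library, and again with the spread of the 7KC group alone, the adjusted p was 0.0458 for Irf1 and 0.0266 for Il1rn. In the other direction, the 3 fibrinogen chains Fga, Fgb and Fgg, made by hepatocytes, had log2 changes of -0.34, -0.40 and -0.50 (adjusted p 0.405, 0.369 and 0.298 by limma). They were named after their values were seen, and the hepatocyte markers were lower in the same libraries. Each chain was lower without overlap in the FPKM as deposited, which was not repeated with the libraries rescaled to the same sum. The IL-6 responsive genes Hp, Hpx and Hamp, also named after their values were seen, had log2 changes of 0.17, 0.12 and 0.14, with the SE above the change in each.

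**Figure D4:**
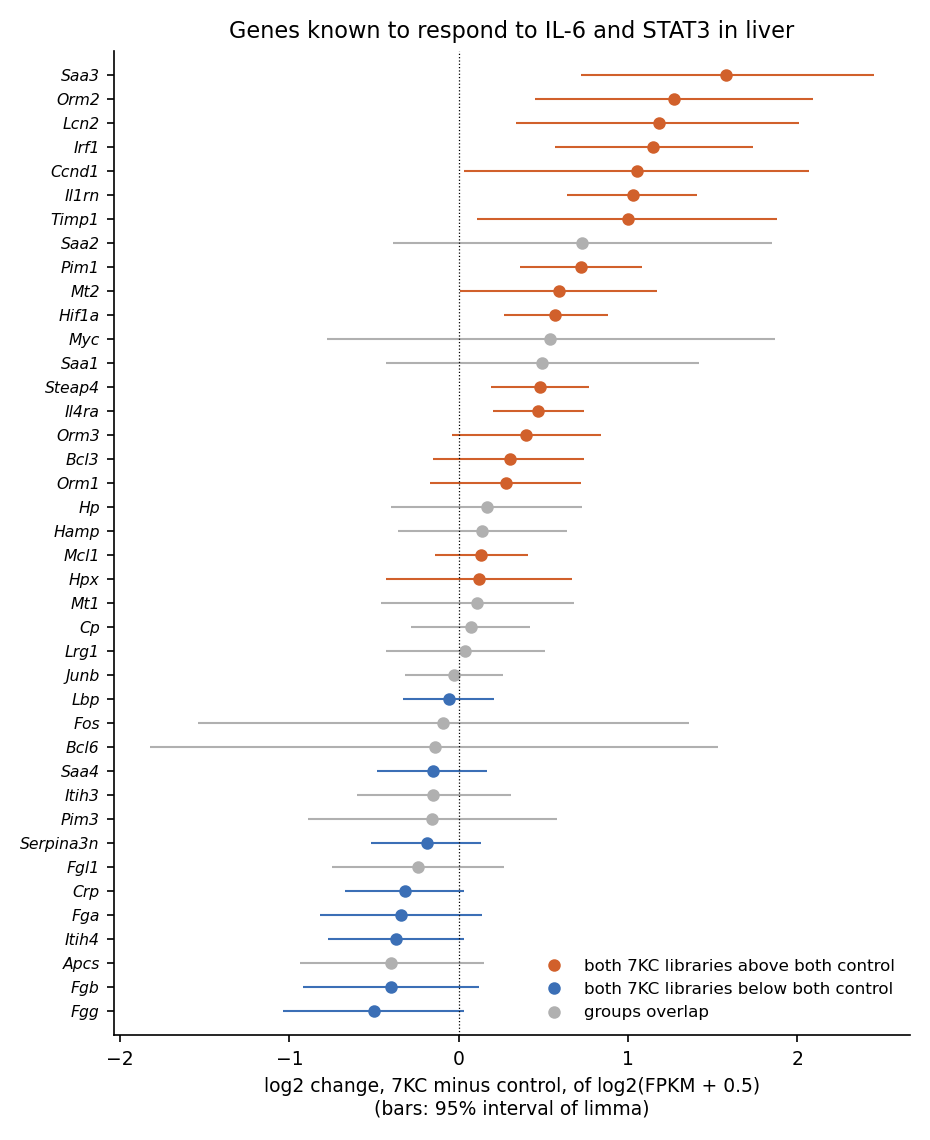
Log2 change (7KC minus control, points) with 95% limma intervals (bars) of the 40 tested genes known to respond to IL-6 and Stat3, coloured by whether both 7KC libraries were above both control libraries (17 genes, orange), below them (8, blue) or overlapped (15, grey). The changes run from -0.50 in Fgg to 1.58 in Saa3, and none passed the threshold over all genes.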

How the data were processed

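Stranded mRNA libraries of mouse liver (2 control, 2 7KC) were sequenced as single-end reads, mapped to mm10 with TopHat and Bowtie2, and deposited by the authors as FPKM, 1 value per gene symbol and library, calculated with Cufflinks. Per the labels the tools were TopHat2 2.1.1, Bowtie2 2.2.8, SAMtools 0.1.18 and Cuffdiff 2.2.1, and the methods of the study give other versions. Annotation, strand use and the handling of multi-mapped reads are not given in the sources used here, and FPKM moves with the few most abundant genes of a library.

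The groups were taken from the labels. Values were compared as log2(FPKM + 0.5), which understates the change of low genes, over the 12299 genes averaging 0.5 FPKM or more, with limma 3.58.1 in R 4.3.3 (lmFit, eBayes with a trend, group as the only term, 2 residual and 3.27 prior degrees of freedom), two-sided, with Benjamini-Hochberg adjustment over all tested genes and a threshold of 0.05. The procedure was tested on simulated data. Depth was estimated from the FPKM step that 1 read makes in genes with 1 transcript (GENCODE M21, fragment of 200 bases), and 69.4% to 71.3% of values under about 10 reads lay no more than 0.1 from a whole number. Reads were used only to describe depth.

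The 9 genes, the 7 pathway lists and the markers were chosen with earlier results of these data known. A pathway gene is not reported here, and the counts over the lists leave it out, while the fit and the counts over all genes include it. Of the listed marker genes 2 were not matched to a symbol in the files. Genes named from a list were those past the threshold and then the largest changes without overlap, up to 4 a list or 6 for the responsive genes. Alternatives were other pseudocounts (0.1 and 1), filters, scalings, no trend, a replicate block and leaving out each library. Figures were drawn with matplotlib 3.10.9. The effect of the alternatives is given in the closing section.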

Additional observations from a re-analysis of the deposited data

How the results depend on the processing

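None of the 9 genes passed the threshold under any of the 14 alternatives, which in Il6 concerns the run without a filter alone. At an unadjusted p under 0.05 there were 2 with the same sum, 1 with the replicate block and 1 each when control replicate 1 or 7KC replicate 2 was left out. The labels number the replicates and do not say whether same-numbered libraries were paired. Across 12299 genes the deviations of same-numbered libraries from their group means correlated at -0.14. With 2 libraries per group this 1 value cannot decide whether they share a batch. With the replicate block limma called 0 genes (1851 at an unadjusted p under 0.05), against 62 without it, so every call was lost. A crossed block, chosen after seeing that correlation, gave 588 calls, 8 of them pathway genes that were higher.

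All tested genes past the threshold numbered 115 with a pseudocount of 1 FPKM, 1 without a filter, 405 with the libraries rescaled to the same sum, 98 with the median ratio, 40 without the trend, and 4 to 441 when 1 library was left out. Pathway genes called higher, 0 as reported, numbered 1 with a pseudocount of 1 FPKM and 1 with the median ratio, in both cases Ebi3 at adjusted p-values of 0.0496 and 0.0493. They were 10 with the same sum and 0 to 7 without single libraries, where the 7 were called without control replicate 1. Without a filter 16858 genes entered the adjustment. With the same sum 3 of the 9 genes (Stat3, Socs3 and Cebpb) were higher and 0 lower without overlap, so that Il6ra overlapped. That scaling shifted the tested genes upward in general, from a median of -0.03 to 0.16. With quantile normalization 2 of the 9 were higher and 1 lower. Without single libraries 2 to 4 were higher and 1 to 3 lower, since a group of 1 library overlaps less easily. The shares of all tested genes without overlap were not computed under these settings, so these counts have no background to be read against.

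Small changes turned with the settings: with the same sum Il6st was at 0.10, Osmr at 0.10, Cebpb at 0.11, Cebpd at 0.10 and Ctf1 at 0.06. Leaving out 1 library moved Lifr from -0.22 to 0.51, Osmr from -0.25 to 0.13, Cebpd from -0.29 to 0.11, Cebpb from -0.20 to 0.01, Stat3 from -0.01 to 0.19 and the Osmr to Lifr ratio difference from -0.76 to 0.34. The cause was not tested. Il6ra was lower and Socs3 higher under the 13 alternatives computed for single genes, which leave out the crossed block. Il6, Osm and Lif were limited by depth.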

Other observations

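Among the listed genes 5, picked after their values were seen and not by a rule, differed more within the diet groups than between them, as Lifr did. Cish, an inhibitor induced by Stat5, was at 6.66 and 31.7 FPKM in control replicates 1 and 2 and at 31.6 and 4.03 FPKM in 7KC replicates 1 and 2. Its higher library exceeded the lower by 4.76 times in the control group and by 7.85 times in the 7KC group, while the log2 change between the groups was -0.33 (95% interval -3.12 to 2.46). Socs2, another Stat5 target, was at 14.1 and 17.6 against 20.9 and 7.58 FPKM, and Myc was at 2.76 and 8.42 against 9.91 and 5.43 FPKM. In Cish, Socs2, Myc and Lifr control replicate 2 and 7KC replicate 1 were the higher library of their group. Bcl6, a repressor that growth hormone lowers, was at 30.1 and 10.5 FPKM on the control diet and at 9.27 and 27.7 FPKM on the 7KC diet, and Fos was at 9.79 and 3.10 against 3.54 and 7.61 FPKM, so in these 2 genes the same libraries were the lower ones. The number of genes with this pattern was not counted, and no group of the labels corresponds to it.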
